A study of Homo sapiens with 12 samples.

Results

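PAX2, PAX8, WT1, LHX1, SALL1, EYA1, SIX2 and GATA3 are transcriptional regulators that build the kidney in the embryo. Every array probe set annotated to a single gene symbol was taken where that symbol was 1 of these 8 names. This gave 22 probe sets for 8 genes, out of 41091 probe sets with 1 symbol for 19775 genes. The cells were 293T, a human embryonic kidney line that carries adenovirus E1 and SV40 large T antigen genes. They were transiently transfected with a plasmid using polyethylenimine, and RNA was taken 48 hours later. The 3 groups, of 4 biological replicates each, received the empty vector, a vector encoding the human tRNA gene chr1.tRNA68-Gly(GCC), or a vector encoding an artificial hairpin for CU1276, a small RNA that the labels derive from that tRNA. All 12 samples were thus the same line, transfected by the same reagent, and no untransfected cells or kidney tissue were among them. The comparisons ask which kidney lineage genes this line expresses, and whether either vector moved them.

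The kidney arises from the intermediate mesoderm. There PAX2, PAX8 and LHX1 act early, and the duct that forms sends out a ureteric bud into the surrounding metanephric mesenchyme. In that mesenchyme EYA1, SIX2, SALL1 and WT1 maintain nephron progenitors, which later become podocytes and tubules. GATA3 acts in the nephric duct and ureteric bud. EYA proteins have no DNA-binding domain and work as coactivators of SIX2 and its paralogs, and SALL1 recruits a histone deacetylase complex.

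Promoter sequence was at hand for 5 of the 8 genes, in 14 start-site windows of RefSeq (GRCh38.p14), cut here to the 250 bases before each start. The pair below is shown because the files list 1 start for each gene, SIX2 with a bright and PAX8 with a weaker signal, so the windows can be read beside the values that follow. Each is written 5′ to 3′ on the minus strand, with CG dinucleotides in capitals. SIX2 lies at chr2:45009453-45009702 and PAX8 at chr2:113278922-113279171.
SIX2: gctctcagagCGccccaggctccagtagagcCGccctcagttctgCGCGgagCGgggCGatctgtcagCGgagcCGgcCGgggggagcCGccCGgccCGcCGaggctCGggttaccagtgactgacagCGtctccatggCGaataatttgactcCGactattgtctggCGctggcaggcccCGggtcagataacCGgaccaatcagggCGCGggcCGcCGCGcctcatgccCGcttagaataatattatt
PAX8: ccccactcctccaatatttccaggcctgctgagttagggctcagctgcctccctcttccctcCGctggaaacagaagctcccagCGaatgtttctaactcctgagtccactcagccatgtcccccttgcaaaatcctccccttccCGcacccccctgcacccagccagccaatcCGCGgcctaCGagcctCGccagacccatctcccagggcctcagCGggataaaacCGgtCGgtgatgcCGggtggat
The SIX2 window holds 26 CG dinucleotides, more than 81.4% of 35116 windows of that length, counting ties by their average rank. The PAX8 window holds 11, which is the median of all windows. Both contain CCAAT on 1 of the strands (searched as CCAAT and its reverse complement ATTGG), as do 32.0% of all windows. The windows of GATA3 hold 4 to 30 CG dinucleotides, those of WT1 3 to 19 and those of PAX2 10 and 15, and 9 of the 14 lie above the median. These counts describe the letters of the windows and no factor was measured on them.

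In the cells with the empty vector, 7 of the 8 genes gave a signal above 43.3 on all 4 arrays, and LHX1 did not. That signal is the 40th percentile of mean log2 signal over all probe sets, below which probe sets were left out of the tests. Of all 19775 genes, 63.6% passed the same rule, so the share of the 8 genes (87.5%) is to be read against a high background. For each gene the brightest of its probe sets was used, and its percentile is the share of the other genes with a lower mean log2 signal on the empty vector arrays. By this measure none of the 8 reached the highest 25% of genes, although GATA3 was close, at 74.8 with single arrays at 72.5 to 76.8. By the median of a gene's probe sets, given further below, SALL1 was in the highest 25%. Probe affinities differ between genes, so a percentile ranks signals and not numbers of transcripts.

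**Figure D1:**
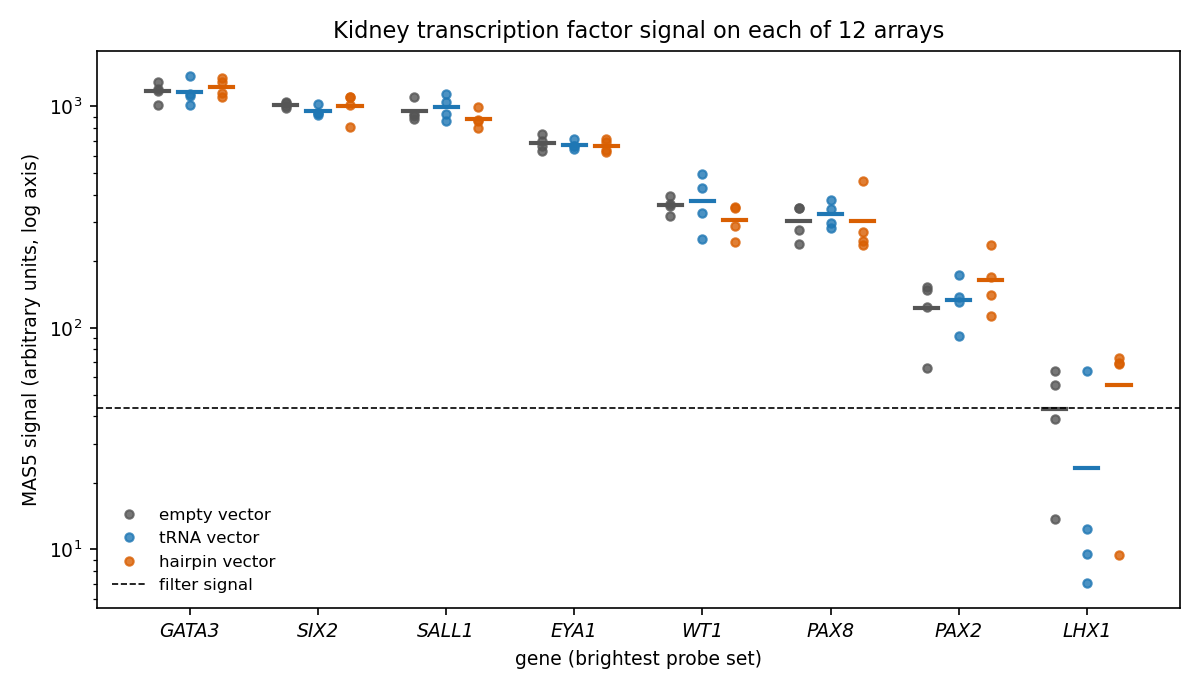
MAS5 signal in arbitrary units on a log axis for the brightest probe set of each of the 8 genes, with 1 point per array, the 3 vector groups in 3 colours and a short bar at each group mean. The dashed line is the filter signal of 43.3, which only LHX1 crosses.

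GATA3, a zinc finger factor of the nephric duct, had signals of 1171, 1019.5, 1291 and 1192 on the 4 empty vector arrays (replicates 1 to 4). Cells with the tRNA vector gave 1017, 1139, 1370.3 and 1118. The hairpin vector arrays gave 1102, 1338, 1152 and 1284. The 3 groups overlapped, and no array stood apart. The group means were 1168 ± 112, 1161 ± 149 and 1219 ± 110.4 (SD, n = 4). The empty vector mean lay at the 74.8th percentile of genes, and the single arrays at 72.5 to 76.8.

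SIX2, the homeodomain factor that keeps nephron progenitors undifferentiated, had empty vector signals of 1005, 985, 1036 and 1043. Signals with the tRNA vector were 1023, 935, 936 and 918, and with the hairpin vector they were 1106, 1104, 809 and 1011. The hairpin vector arrays spread most, and the groups overlapped. Means were 1017 ± 27.2, 953 ± 47.7 and 1008 ± 139.5 (SD, n = 4), and the empty vector percentile was 72.6, with a range of 71.98 to 72.9 over arrays.

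SALL1, a zinc finger repressor, was read by a pair of bright probe sets. The brightest, 206893_at, gave 1108, 876, 923 and 904 on the empty vector arrays. The tRNA vector arrays gave 1134, 856, 1051 and 922, and those of the hairpin vector 991, 799, 855 and 868. Replicate 1 was the highest array in each group, and the groups overlapped. Means were 953 ± 105, 991 ± 125 and 878 ± 80.6 (SD, n = 4), and the empty vector percentile was 71.4, with a range of 70.01 to 73.9. On single arrays GATA3, SIX2 and SALL1 overlapped in percentile, so their order was not separated by the spread between arrays.

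EYA1, a coactivator and phosphatase, gave 754, 695, 629 and 660.2 on the empty vector arrays. Cells with the tRNA vector gave 711, 644, 666 and 661, and those with the hairpin vector 714, 624, 692 and 633. These were the most even signals among the 8 genes. The residual SD of the 12 arrays about their group means was 0.092 on the log2 scale, lower than for all but 3.51% of the tested probe sets. Means were 684 ± 53.6, 670.3 ± 28.4 and 666 ± 44.4 (SD, n = 4), and the empty vector percentile was 66.1, with a range of 64.7 to 67.5 that lay below the range of SALL1 and above that of WT1.

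WT1, the zinc finger factor of nephron progenitors and podocytes, gave 393, 363, 321 and 355 with the empty vector, at the 56.4th percentile. Signals with the tRNA vector were 494, 429, 251 and 331, and with the hairpin vector they were 348, 352, 287 and 245. The tRNA vector arrays held both the highest signal and nearly the lowest, and the groups overlapped. Means were 358 ± 29.4, 376 ± 107 and 308 ± 51.5 (SD, n = 4).

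PAX8, a paired-box factor of early renal epithelium, gave 239.9, 349, 275 and 349 with the empty vector, at the 54.3rd percentile. The tRNA vector arrays gave 345, 284, 298 and 377, and the hairpin vector arrays 238, 458, 248 and 272. Hairpin vector replicate 2 was the highest of the 12, and the other hairpin vector arrays lay within the range of the empty vector or just under it. Means were 303 ± 54.7, 326 ± 43.0 and 304 ± 103.97 (SD, n = 4). The single-array percentiles of PAX8 (51.3 to 56.1) and WT1 (55.2 to 57.5) overlapped.

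PAX2, the paralog that acts with PAX8 in duct and progenitors, was dimmer. It gave 66.0, 153, 124 and 149 on the empty vector arrays. Cells with the tRNA vector gave 174, 91.9, 138 and 131, and those with the hairpin vector 114, 237, 141 and 169. Every array was above the filter signal, yet the highest was 3.60 times the lowest, and the groups overlapped. Means were 123 ± 39.99, 134 ± 33.7 and 165 ± 53.1 (SD, n = 4), and the empty vector percentile was 43.2, with a range of 33.2 to 45.3.

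LHX1, a LIM homeodomain factor needed for the nephric duct, has 1 probe set, and its signal was at the level of the filter. It gave 55.3, 38.9, 63.8 and 13.8 on the empty vector arrays. Signals with the tRNA vector were 9.57, 7.09, 64.2 and 12.4, and with the hairpin vector they were 69.4, 68.8, 73.5 and 9.41. High and low arrays occurred in every group, 6 of the 12 were above the filter signal, and the empty vector percentile was 24.9. On the empty vector arrays its single-array percentiles, 11.6 to 31.0, lay below those of PAX2. Over all 12 arrays the percentiles of LHX1 (4.40 to 35.5) and PAX2 (33.2 to 50.5) overlapped. By the brightest probe set PAX2 in turn lay below PAX8 on the empty vector arrays, and the median of probe sets, given below, reversed that order. LHX1 was not tested, and no fold is given for it.

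Probe sets of a gene did not all show its signal. For PAX8 the probe set 121_at stood alone: it was above the filter signal on 12 arrays, while the next, 213917_at, was above it on 8 arrays, and the remaining 6 were dim, with signals of 2.02 to 119 and at most 4 arrays above the filter. For EYA1 the other probe set (3.68 to 81.2) was dim. For WT1 the other, 216953_s_at, gave 3.70 to 123. The other SIX2 probe set gave 136 to 319 against 809 to 1106 for the brightest, and those of GATA3 gave 74.1 to 212 and 28.3 to 202. The second PAX2 probe set, whose name ends in x_at and so marks probes that may bind other transcripts, gave 12.9 to 157. Of the 22 probe sets, 14 passed the filter. When the median of a gene's probe sets replaced the brightest for all genes, PAX8 stood at the 23.4th percentile and GATA3 at the 54.7th, with SALL1 at 81.5, SIX2 at 73.1, EYA1 at 52.8, PAX2 at 51.9 and WT1 at 51.4.

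**Figure D2:**
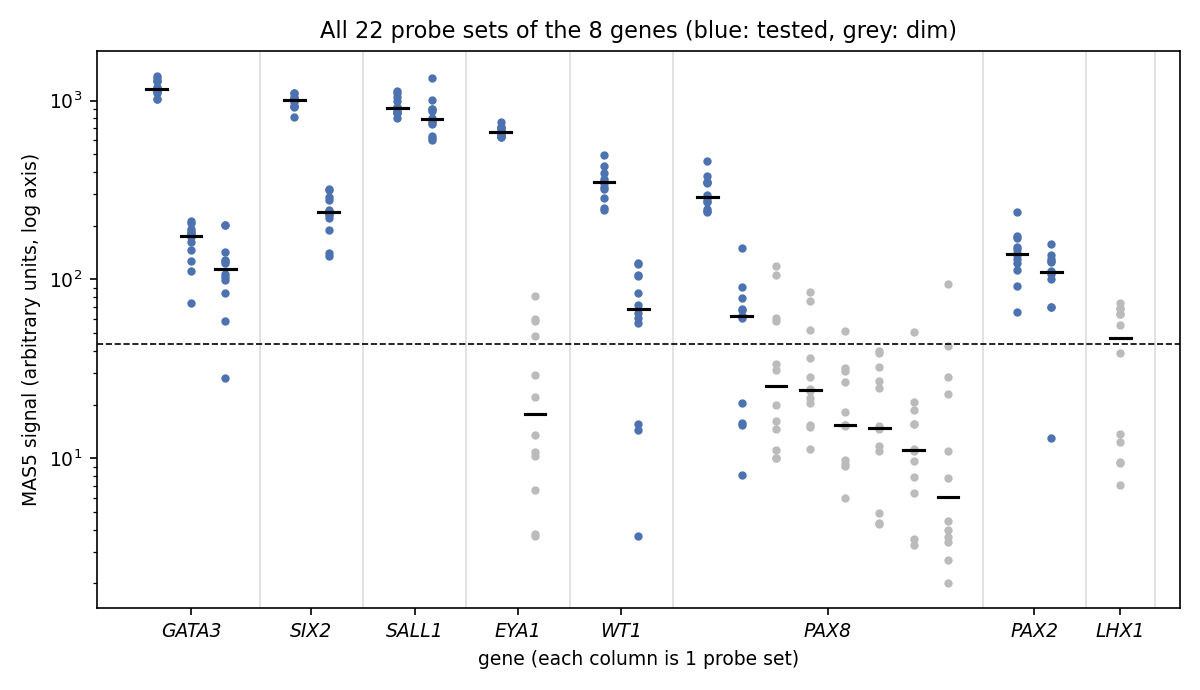
MAS5 signal in arbitrary units on a log axis for all 22 probe sets of the 8 genes, each column 1 probe set with its 12 arrays and a bar at their median. Tested probe sets are blue and the 8 dim ones grey; 6 of the dim ones belong to PAX8.

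How the 8 genes rank can be read beside genes of other lineages. Of 17 measured markers of blood, liver, muscle, pancreas, lung and retina, 5 passed the rule of 4 empty vector arrays above the filter signal, where 63.6% of all genes did. The median percentile of the 17 was 23.3. The highest was ACTA1, skeletal muscle actin, at 48.6, with SFTPB, a lung surfactant protein, at 47.3 and ALB, serum albumin, at 43.9. GATA3, SIX2, SALL1, EYA1, WT1 and PAX8 lay above all 17 by their brightest probe set. For PAX8 this rests on 1 of its 8 probe sets, and for GATA3, EYA1 and WT1 it also rests on the brightest alone. Their other probe sets had empty vector means of at most 143 (GATA3), 26.7 (EYA1) and 55.1 (WT1), against 192.8 for ACTA1. The second probe sets of SIX2 and SALL1, at 226 and 748, were above that of ACTA1. By the median of its probe sets PAX8 was at 23.4, but the 17 markers were not ranked by that measure here. PAX2 and LHX1 lay within the range of the 17 by their brightest probe set. Of 11 adrenal markers, 1 passed (CHGA, a protein of secretory granules, at 45.1), and the median was 9.79; MC2R, the corticotropin receptor, was next at 33.8 and HSD3B2, a steroid enzyme, at 14.5. Of 8 epithelial markers 4 passed, led by the keratin KRT18 (85.3), with the cadherin CDH1 at 52.4 and KRT8 at 50.9. Of 8 fibroblast markers 2 passed, with the collagen COL1A1 at 69.0, COL3A1 at 36.7 and FAP at 34.7. The 5 COL1A1 probe sets had empty vector means of 838, 390, 175, 60.2 and 31.4. The second CDH1 probe set gave 25.5, against 263 for the brightest.

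Other genes of kidney formation varied widely. Of 9 measured nephron progenitor genes, 7 passed (77.8%, against 63.6% of all genes), with a median percentile of 54.6. SIX4, a homeodomain paralog of SIX2, lay at 73.8 (signal 1097 ± 90.8, SD, n = 4), CITED1, a coactivator of uncommitted progenitors, at 70.9 (925 ± 49.3), and HOXD11, a homeobox gene of the metanephric mesenchyme, at 66.8 (719 ± 137). The other SIX4 probe set gave 51.7 ± 17.5. OSR1, the earliest of these genes, lay at 7.53 (15.8 ± 12.3), as named after its value was seen. Of 7 renal stroma genes 4 passed (57.1%, near the share of all genes). They were led by FOXD1, the forkhead factor that defines the renal stroma, at 86.6 (2405 ± 112), ALDH1A2, which makes retinoic acid, at 80.0 (1578 ± 156) and MEIS1 at 66.6. The same cultures thus gave signal for a stroma factor and for SIX2 and CITED1 of the progenitors. This was bulk RNA, where fewer cells of a type and less RNA per cell cannot be told apart. Whether single cells held these transcripts together was not measured.

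Ligands and receptors of the inductive signals passed in 9 of 13 (69.2%), near the 63.6% of all genes. The receptor NOTCH2 lay at 91.1 (3407 ± 126, SD, n = 4), the fibroblast growth factor receptor FGFR2 at 72.2 (996 ± 120.1) and the Notch ligand DLL1 at 68.5. Of the 11 FGFR2 probe sets the second gave 983 ± 75.4 and the third 412 ± 58.1, and the rest fell to as low as 6.60 ± 3.20. The other DLL1 probe set gave 70.5 ± 43.3, against 792 ± 79.4 for the brightest. WNT4, the ligand that turns progenitors into epithelium, lay at 5.62 (10.9 ± 2.74), again named after its value was seen. Of 16 ureteric bud and collecting duct genes 8 passed, with a median of 36.7, led by HOXB7, a homeobox gene of the duct (84.6, signal 2114 ± 45.7), SOX9 (65.5) and SPRY1, an inhibitor of receptor tyrosine kinases (64.8).

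Among the kidney lists the tubule genes had the lowest median. Of 14 tubule genes 3 passed, against 63.6% of all genes, and the median percentile was 24.1. LRP2, the endocytic receptor megalin, was highest at 50.8 (231 ± 51.4, SD, n = 4), followed by the water channel AQP1 (36.7) and the sodium chloride cotransporter SLC12A3 (34.3). CDH16, the kidney cadherin, lay at 0.749 and was named after its value was seen. Of 10 podocyte genes 7 passed (70%, near the share of all genes), with a median percentile of 44.3, above the 36.7 of the ureteric bud genes. CD2AP, an adaptor of the slit diaphragm that many cells use, lay at 80.8 and PODXL, a sialomucin, at 68.5. The other CD2AP probe set gave 44.9 ± 8.77, against 1657 ± 120 for the brightest. PTPRO, a phosphatase, ranked first at 97.2, but that rests on 1 probe set with 8282 ± 3863 (SD, n = 4) and 14070 on empty vector array 1, while its other probe sets gave 47.5 ± 29.0 and 32.7 ± 20.3. NPHS1, which encodes nephrin of the slit diaphragm, lay at 15.7 (35.7 ± 44.1), named after its value was seen.

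**Figure D3:**
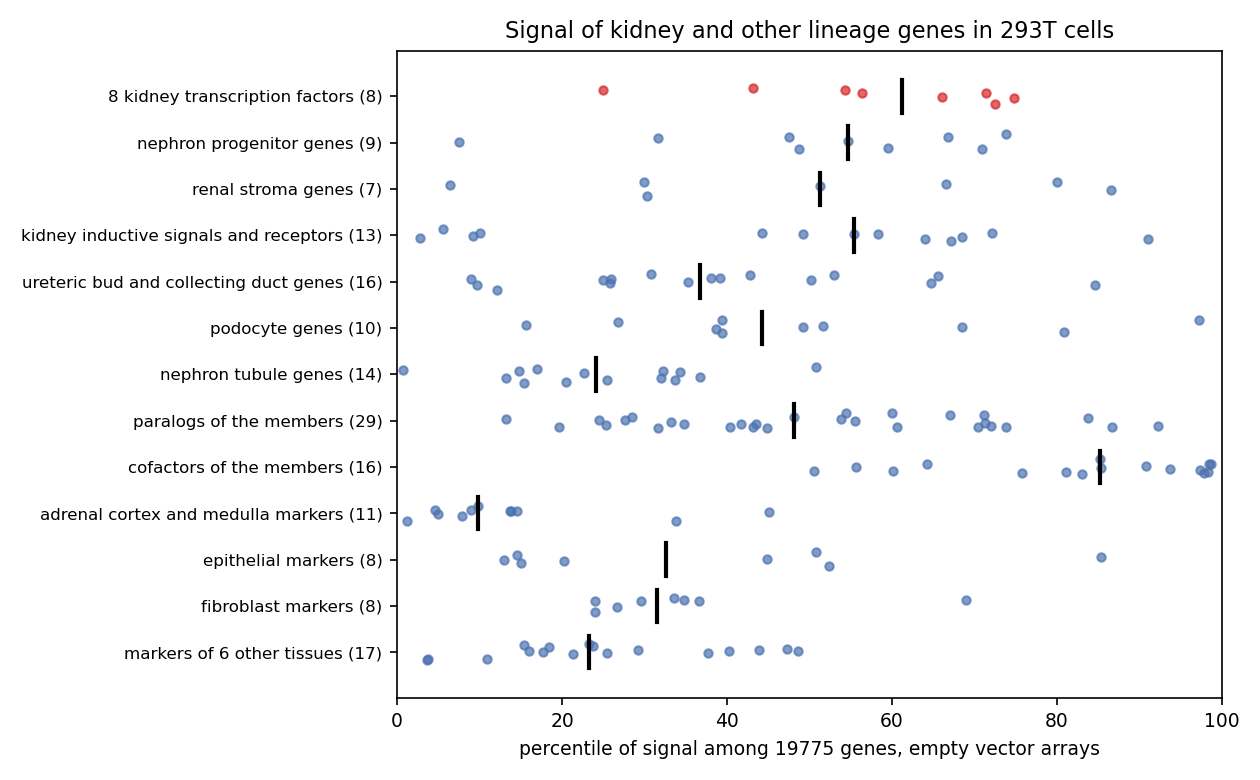
Percentile of signal among 19775 genes on the 4 empty vector arrays, with 1 point per gene (its brightest probe set), 1 row per gene list, the number of measured genes in brackets and a bar at the list median. The 8 kidney transcription factors (red) run from 24.9 to 74.8, and the tubule genes have a median of 24.1.

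By the brightest probe set, most families of the 8 genes had a paralog that ranked higher. The highest percentile among paralogs was PAX6 in the PAX family (83.8, signal 2011 ± 187, SD, n = 4), LHX8 for LHX1 (60.7), SALL2 for SALL1 (86.7, 2445 ± 415), EYA3 for EYA1 (92.2, 3873 ± 266) and SIX4 for SIX2 (73.8). GATA3 was the exception, ranking above GATA6 (71.1), the next of its family. PAX6 is known as an eye and brain factor, and EYA3 as a widely expressed phosphatase. The other EYA3 probe sets gave empty vector means of 285, 128 and 34.0. The LIM homeodomain family passed the filter rule in 5 of 8 measured genes, and LHX1 was not 1 of them. The other families passed in 6 of 9 (PAX), 3 of 4 (SALL), 4 of 4 (EYA), 3 of 5 (SIX2 and paralogs) and 5 of 6 (GATA). Of all genes 63.6% passed this rule, so such small counts do not set a family apart. Cofactors that the 8 proteins work with passed in 16 of 16, with a median percentile of 85.3. Of the histone deacetylase complex that SALL1 recruits, RBBP7 lay at 98.7, HDAC2 at 98.5, HDAC1 at 98.4, RBBP4 at 97.8, MTA1 at 93.7 and CHD4 at 83.0, the last below the median of the list. RBBP4, MTA1 and CHD4 were named after their values were seen.

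None of the 7 tested genes passed the test for a difference between vectors, and LHX1 was too dim to be tested. The comparison of the tRNA vector with the empty vector asks whether the tRNA gene moved them, and that of the hairpin vector whether CU1276 as a hairpin did. The test was a limma fit of log2 signal over 32768 probe sets and 12 arrays, with Benjamini-Hochberg adjustment over all of them. It called 0 probe sets in each of the 3 comparisons, with 1238, 867 and 1271 at an unadjusted p under 0.05 (3.78%, 2.65% and 3.88% of those tested) for tRNA against empty, hairpin against empty and hairpin against tRNA vector. The unmoderated test between 2 groups called 0 in each as well. These zeros depended on the fit. With the replicate number as a block limma called 0, 0 and 6 probe sets, and with the 3 levels of Bacillus control signal as a block 4, 3 and 8, none of them a probe set that stands for the 7 genes or the second SALL1 probe set. Among the 7 brightest probe sets tested, 0 of 21 tests had an unadjusted p under 0.05, and the smallest limma adjusted p was 0.9997. Over the 14 tested probe sets of the 8 genes, 1 had an unadjusted p under 0.05 in the limma F test of any difference among the 3 groups, against 3.24% of all, and 0 passed after adjustment. A p that misses the threshold does not show equal levels, so the 95% intervals of the differences are given next.

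The intervals come from the fit without a block, which does not pair arrays by replicate number, and were narrow for the bright genes. For EYA1 they ran over the 3 comparisons from a fold of 0.834 to 1.16, for GATA3 from 0.837 to 1.25, for SIX2 from 0.797 to 1.23 and for the brightest SALL1 probe set from 0.744 to 1.24. They were wider for PAX8 (0.655 to 1.49) and WT1 (0.618 to 1.38), and widest for PAX2 (0.686 to 2.22). The largest log2 fold change of these 7 was that of PAX2 with the hairpin against the empty vector, 0.45 ± 0.33 (SE, n = 4 per group), with an unadjusted limma p of 0.192. Without empty vector replicate 1 it was 0.17, and without hairpin vector replicate 2 it was 0.26. The second PAX2 probe set was at -0.073 ± 0.61 in the same comparison. WT1 was at -0.23 ± 0.20 with the hairpin against the empty vector and PAX8 at 0.11 ± 0.22 with the tRNA against the empty vector. Both vectors were set against the same 4 empty vector arrays.

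**Figure D4:**
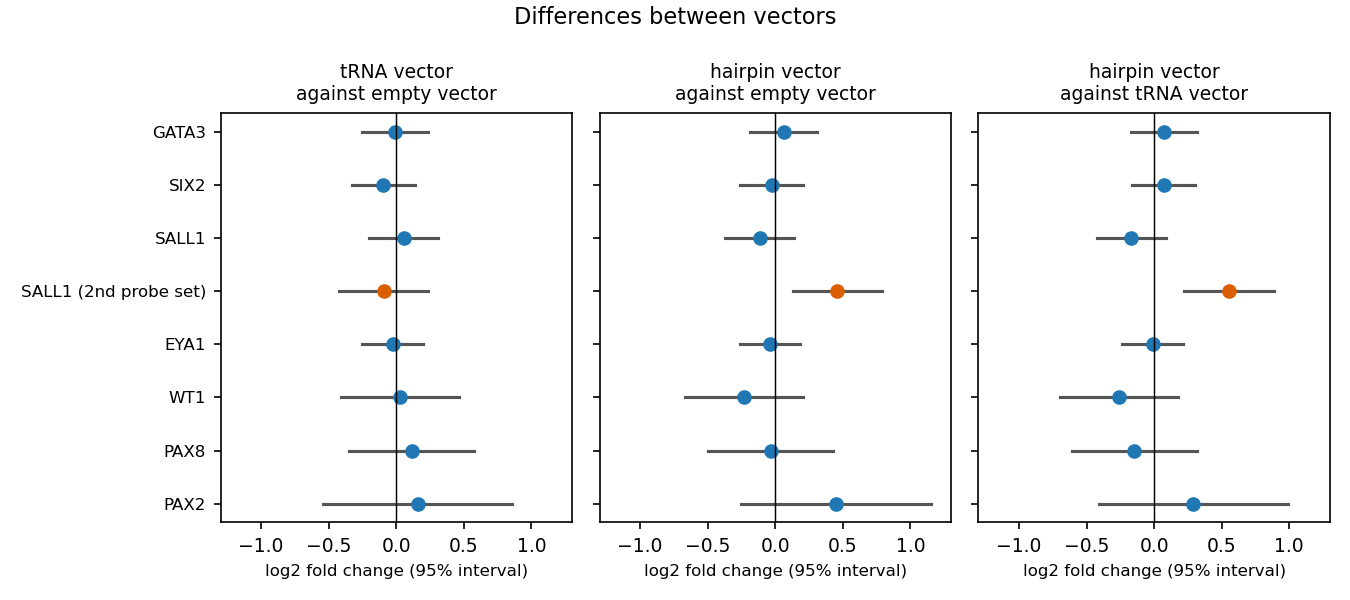
Log2 fold change with its 95% limma interval (fit without a block) for the brightest tested probe set of 7 genes and for the second SALL1 probe set (orange), in the 3 comparisons. All intervals of the brightest probe sets include 0, and those of the second SALL1 probe set lie above 0 where the hairpin vector is compared.

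The second SALL1 probe set, 229273_at, was the only one of the 14 tested whose groups did not overlap. It gave 869, 752, 599 and 773 on the empty vector arrays. The tRNA vector arrays gave 801, 637, 739.8 and 617, and those of the hairpin vector 1342, 894, 1011 and 892. All 4 hairpin vector arrays lay above all 8 others. Groups did not overlap for 0 of the 14 tested probe sets with the tRNA against the empty vector, where 2.6% of all tested probe sets did not. The count was 1 of 14 with the hairpin against the empty vector (2.12% of all) and 1 of 14 against the tRNA vector (2.63% of all). Means were 748 ± 112, 699 ± 86.7 and 1035 ± 212 (SD, n = 4).

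The log2 fold change of this probe set was 0.46 ± 0.15 against the empty vector, a fold of 1.38 (95% interval 1.09 to 1.73), and 0.55 ± 0.15 against the tRNA vector, a fold of 1.47 (1.17 to 1.85). The unadjusted limma p were 0.00996 and 0.00292, and neither passed after adjustment (limma adjusted p = 0.9999 and 0.9997). The brightest SALL1 probe set had log2 fold changes of the opposite sign that did not pass the test, -0.12 ± 0.12 and -0.17 ± 0.12.

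Within each array the log2 ratio of the second to the brightest SALL1 probe set was 0.040 to 0.44 with the hairpin vector, -0.62 to -0.22 with the empty vector and -0.58 to -0.43 with the tRNA vector. The ratio was thus higher on every hairpin vector array. This ratio was chosen after its values were seen, so it is given as a description with no test, and it restates the separation of the second probe set. Which part of the transcript each probe set reads was not analysed here.

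**Figure D5:**
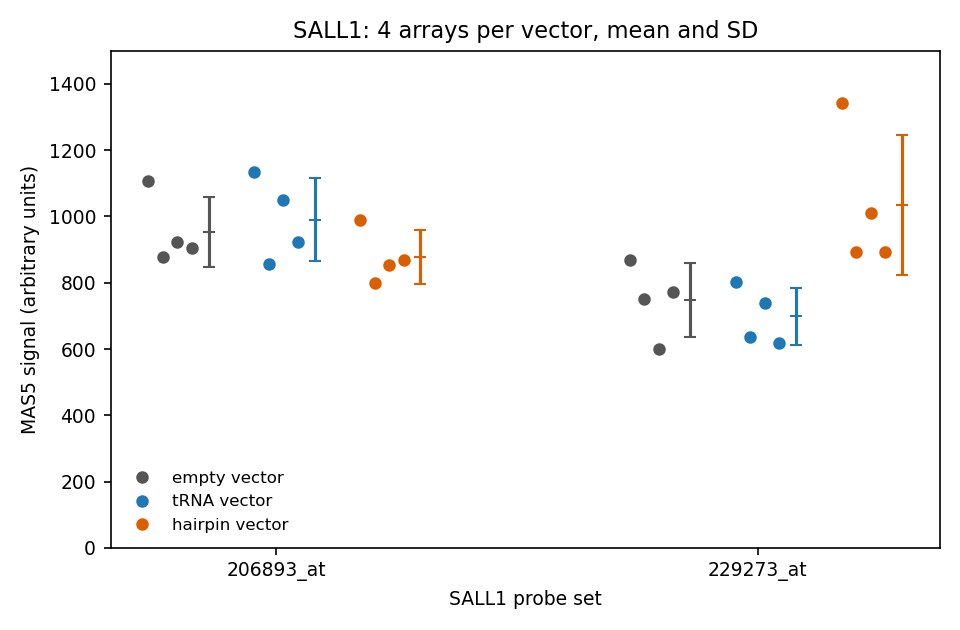
MAS5 signal in arbitrary units of both SALL1 probe sets, with 4 arrays per vector in replicate order from left to right and the mean with SD beside them. For 229273_at the 4 hairpin vector arrays (892 to 1342) lie above the 8 others (599 to 869), and for 206893_at the groups overlap.

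The wider kidney lists gave no calls either. In each comparison 0 of 44 tested genes of the 6 kidney lists passed limma after adjustment, against 0 of 32768 probe sets, and 6, 2 and 3 of the 44 had an unadjusted p under 0.05, against 3.78%, 2.65% and 3.88% of all tested probe sets. Their median log2 fold change was -0.017, -0.018 and -0.0023 for tRNA against empty, hairpin against empty and hairpin against tRNA vector, where all tested genes had medians of 0.0030, 0.0042 and 0.0028. The 6 with the tRNA against the empty vector went both ways: SIX4 (log2 fold change -0.35 ± 0.15, SE), SOX9 (-0.42 ± 0.16), CD2AP (-0.38 ± 0.14) and CRYM (-0.56 ± 0.25) were lower, and WNT11 (1.11 ± 0.43) and SOX8 (0.48 ± 0.22) were higher. WNT11 was dim with the empty vector (102.8, 36.8, 34.9 and 50.7, at the 30.9th percentile) and did not pass the rule of 4 arrays above the filter signal. The 2 with the hairpin against the empty vector were SOX8 (0.48 ± 0.22) and BMP4 (-0.90 ± 0.40). With the hairpin against the tRNA vector the 3 were SIX4 (0.35 ± 0.15), SOX9 (0.43 ± 0.16) and HOXD11 (0.51 ± 0.15). CRYM, WNT11, SOX8 and BMP4 were named after their values were seen. The comparisons share arrays, so their values are not independent.

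The genes whose signal moved most like each of the 7 tested genes were found by Pearson correlation over 12 arrays, after the mean of each replicate number was subtracted, among 13951 other genes. They were STAM and RBP7 for PAX2 (r = 0.958 and 0.948), SDHD and GCDH for PAX8 (0.952 and 0.949), MYLK-AS1 and STARD9 for WT1 (0.901 and 0.895), and CTPS1 and APEX1 for SALL1 (0.970 and 0.951). For EYA1 they were LPIN2 and STMN4 (0.930 and 0.929), for SIX2 CPVL-AS2 and CYB561D2 (0.903 and 0.897), and for GATA3 RASSF5 and NKX3-2 (0.958 and 0.939). Without that subtraction the same pairs ran from -0.094 (LPIN2 with EYA1) to 0.837 (RASSF5 with GATA3), with SDHD and PAX8 at -0.053, NKX3-2 and GATA3 at 0.294 and STAM and PAX2 at 0.318. The highest of so many correlations over 12 arrays is high by selection, and the arrays share their scaling, so the names are a description. Between the members themselves the highest was PAX2 with PAX8 (0.669) and the lowest EYA1 with SIX2 (-0.66).

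Over the series, the array medians ran from 75.9 to 103.7. GAPDH probe sets near the 3' end gave 1.18 to 1.67 times the signal of those near the 5' end. Mean signal of 24 control probe sets for Bacillus genes was 1941 to 2061 on the arrays numbered 1, 371 to 432 on those numbered 2 and 19.8 to 27.6 on those numbered 3 and 4. Each number holds all 3 groups.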

How the data were processed

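Signals of 54675 probe sets were analysed on 12 oligonucleotide arrays of biotin-labelled RNA (12 micrograms of total RNA each) from 293T cells. The deposited values are signal intensities on a linear scale, made with MAS5 per the submitters' processing notes; its version is not given in the sources used here. All 12 columns share a 2% trimmed mean of 500.1, a common target of scaling before deposit. The genome build is not given in the sources used here. Probe set names came from the platform's annotation table, with 0 symbols changed on update by Entrez identifier. Control probe sets (62) and 21845 dim ones were left out, as were symbols of probe sets with several genes (1801). limma 3.58.1 in R 4.3.3 (lmFit, eBayes with trend) was fitted to log2 signal with 3 group means, with a threshold of 0.05. It was checked on simulated data. The number of arrays limits the precision.

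The members and gene lists were chosen with earlier results of these data known. Of each list the 3 genes with the highest percentile were named, and for each member the 2 most alike genes. List genes not among the measured ones were not analysed here. Alternatives covered normalization, offset, filter, block, the samples in the fit and each array left out.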

Additional observations from a re-analysis of the deposited data

Results flagged for a closer look

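On 7 of 66 sets of 4 arrays (22 probe sets in 3 groups), 1 array stood far from the other 3 on the log2 scale by Dixon's test, where chance gives about 1 in 20. Those probe sets are dim or not the brightest of their gene, apart from the 1 probe set of LHX1. The second PAX2 probe set was 12.9 on tRNA vector array 2 (others 108 to 130). For PAX8, 213917_at was 15.4 on empty vector array 2 (others 60.6 to 67.5), and 209552_at was 6.00 on tRNA vector array 3 (others 15.3 to 15.4) and 30.8 on hairpin vector array 4 (others 9.10 to 9.78). The second WT1 probe set was 3.70 on empty vector array 1 (others 61.2 to 84.0) and 15.6 on hairpin vector array 1 (others 106 to 123). LHX1 was 9.41 on hairpin vector array 4 (others 68.8 to 73.5).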

How the results depend on the processing

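Of the 8 genes, 7 stayed above the filter signal with quantile normalization and without each empty vector array. With the filter at the 60th percentile, a signal of 143.5 and an alternative chosen after seeing the data, there were 6 and PAX2 was lost. Against all probe sets in place of 1 per gene the percentiles were 56.7 for PAX2, 69.7 for PAX8, 71.8 for WT1, 34.8 for LHX1, 83.6 for SALL1, 79.7 for EYA1, 84.3 for SIX2 and 85.8 for GATA3. With the median of a gene's probe sets they were 51.9 for PAX2, 23.4 for PAX8, 51.4 for WT1, 81.5 for SALL1, 52.8 for EYA1, 73.1 for SIX2 and 54.7 for GATA3.

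With the replicate block, limma called 0 probe sets for the tRNA against the empty vector, 0 for the hairpin against the empty vector and 6 for the hairpin against the tRNA vector. With a block of the 3 levels of Bacillus control RNA it called 4, 3 and 8. None were probe sets of the 7 brightest, whose smallest limma adjusted p over all alternatives was 0.638, nor the second SALL1 probe set (0.797 and 0.190 with the replicate block for hairpin against empty and tRNA vector). With this SALL1 probe set included, the smallest adjusted p over all alternatives, limma or unmoderated, was 0.160. Same-number arrays correlated at 0.0987 to 0.356 in their deviations from group means and arrays of other numbers at -0.231 to 0.148, and 8 of 12 arrays correlated best with their own number. The rule for pairing asked for every same-number pair over 0.1, and 11 of 12 were, so the unblocked fit was kept. These values are still a hint of pairing, strongest for the arrays numbered 1 (0.284 to 0.356). The intervals and p of the unblocked fit do not use it. All other alternatives called 0.

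Leaving out single arrays turned the sign of small differences. For tRNA against empty vector the log2 fold change ran from -0.12 to 0.33 for PAX2, -0.12 to 0.21 for WT1, -0.014 to 0.13 for SALL1, -0.067 to 0.020 for EYA1 and -0.095 to 0.049 for GATA3. For hairpin against empty vector it ran from -0.25 to 0.066 for PAX8, -0.079 to 0.0087 for EYA1, -0.073 to 0.077 for SIX2 and -0.0017 to 0.11 for GATA3, and for hairpin against tRNA vector from -0.046 to 0.020 for EYA1. PAX2 with the hairpin against the empty vector ran from 0.17 to 0.61, and the second SALL1 probe set from 0.33 to 0.54 (hairpin against empty) and 0.42 to 0.62 (hairpin against tRNA). LHX1 was below the filter in the fits.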
